A study of Homo sapiens with 4 samples.

Results

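The 10 genes described here (PIM1, RHOH, BCL7A, DTX1, BTG1, BTG2, BACH2, IRF8, CD83 and ST6GAL1) are known targets of aberrant somatic hypermutation in lymphoma. They were taken by name from 19974 protein-coding genes, and every BCL6 peak was used whose summit, its highest point, lay in the gene or within 20 kb of either RefSeq end. Of the 5237 peaks of replicate 1, 28 lay there, and of the 3536 peaks of replicate 2, 23 did. BCL6, a transcriptional repressor, was mapped by CUT&RUN in the established cell line SUDHL5, derived from a diffuse large B-cell lymphoma. In this assay an antibody guides a nuclease fusion that cuts out the chromatin around its target. The labels name 2 biological replicates with a rabbit BCL6 antibody and 2 with normal rabbit IgG, all from nuclei of this cell line, and no treatment or genetic change is given for any of the 4. Peak lists of the BCL6 replicates were analysed, and the IgG libraries were not analysed here. All values come from 1 cell line, and the mutations of these genes in it were not measured here.

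Somatic hypermutation normally changes immunoglobulin genes in germinal centre B cells. Cytosines are deaminated in transcribed DNA, and the errors fall mostly in the stretch that follows the transcription start, prominently at the letters AGCT. In lymphoma the same process marks other genes, those described here among them. BCL6 is itself such a target and is the master repressor of the germinal centre reaction.

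The sequences shown first are the 250 bases before annotated starts in RefSeq (GRCh38.p14), chosen because they show what lies at the starts with and without a peak. Capitals mark AGCT, which reads the same on both strands, and TTCCTNGAA, a core of the known BCL6 recognition sequence, or its other strand TTCNAGGAA. RHOH has 4 annotated starts, and its first 3 windows are chr4:40190830-40191079, chr4:40192709-40192958 and chr4:40193413-40193662, all on the plus strand. The BCL7A window is chr12:122021634-122021883 (plus), that of BTG2 is chr1:203305269-203305518 (plus), that of PIM1 is chr6:37169902-37170151 (plus) and that of BTG1 is chr12:92145847-92146096 (minus).
RHOH, first start: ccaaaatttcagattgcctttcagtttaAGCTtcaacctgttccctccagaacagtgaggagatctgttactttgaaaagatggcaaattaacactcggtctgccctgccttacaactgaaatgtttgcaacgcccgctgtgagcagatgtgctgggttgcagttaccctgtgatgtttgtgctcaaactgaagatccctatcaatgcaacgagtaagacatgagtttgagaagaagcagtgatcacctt
RHOH, second start: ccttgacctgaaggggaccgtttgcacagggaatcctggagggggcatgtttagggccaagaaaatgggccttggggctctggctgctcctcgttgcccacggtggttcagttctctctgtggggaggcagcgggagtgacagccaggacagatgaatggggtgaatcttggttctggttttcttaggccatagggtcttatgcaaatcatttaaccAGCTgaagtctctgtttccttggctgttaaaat
RHOH, the third start: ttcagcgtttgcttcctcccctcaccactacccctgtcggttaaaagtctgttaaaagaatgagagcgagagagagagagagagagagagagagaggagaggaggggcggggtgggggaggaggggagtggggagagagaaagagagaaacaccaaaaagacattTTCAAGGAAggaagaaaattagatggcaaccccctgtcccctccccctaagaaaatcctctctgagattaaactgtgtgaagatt
BCL7A: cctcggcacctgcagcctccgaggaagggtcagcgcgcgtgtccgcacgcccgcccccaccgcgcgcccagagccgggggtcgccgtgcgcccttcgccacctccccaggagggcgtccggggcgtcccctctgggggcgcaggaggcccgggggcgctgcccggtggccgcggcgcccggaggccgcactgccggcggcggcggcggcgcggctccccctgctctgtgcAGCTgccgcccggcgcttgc
BTG2: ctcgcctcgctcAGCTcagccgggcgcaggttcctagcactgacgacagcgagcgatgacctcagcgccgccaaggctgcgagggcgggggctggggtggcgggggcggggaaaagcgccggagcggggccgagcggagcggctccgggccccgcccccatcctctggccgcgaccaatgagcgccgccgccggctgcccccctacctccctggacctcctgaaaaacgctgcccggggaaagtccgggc
PIM1: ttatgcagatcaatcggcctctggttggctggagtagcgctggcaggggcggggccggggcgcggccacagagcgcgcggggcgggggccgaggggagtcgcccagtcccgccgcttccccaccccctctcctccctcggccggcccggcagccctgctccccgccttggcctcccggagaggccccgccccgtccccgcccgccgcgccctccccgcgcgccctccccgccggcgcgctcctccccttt
BTG1: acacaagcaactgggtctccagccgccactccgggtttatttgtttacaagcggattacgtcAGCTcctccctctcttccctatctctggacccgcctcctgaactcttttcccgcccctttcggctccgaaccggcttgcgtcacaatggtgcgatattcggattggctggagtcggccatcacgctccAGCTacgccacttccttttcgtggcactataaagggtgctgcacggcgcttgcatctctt

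Among the windows shown, peaks covered bases of the first and second RHOH windows and, in replicate 1, of the BCL7A window. The peak at the first RHOH start covered 12 of its 250 bases in replicate 1 and 43 in replicate 2, and that at the second start covered 250 in replicate 1 and 9 in replicate 2. No peak covered the third window. The fourth RHOH window (chr4:40196781-40197030), not shown, had all 250 bases under a replicate 2 peak and none under a replicate 1 peak. A replicate 1 peak covered 129 of the BCL7A bases, and no replicate 2 peak covered any. The windows of BTG2, PIM1 and BTG1 held no base under a peak.

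The members' promoters differed widely in base composition. GC content was 44.4%, 52.8% and 49.6% in the first 3 RHOH windows, 82.4% at BCL7A, 79.6% at PIM1, 74.8% at BTG2 and 56.4% at BTG1, where the median of 34961 promoters was 58.4%. Promoter entries were found for 9 of the 10 genes, 14 in all, and DTX1 has none. AGCT was present in 7 of the 14 windows, against 66.1% of the 34961 promoters. Each window lies before its own start, whereas hypermutation falls mostly after a start. RHOH gave 4 of the 14 windows, and the 2 of IRF8 overlap. TTCCTNGAA was present in 1 of 14, the third RHOH window, against 1.36% of all promoters. The looser TTCNNNGAA, which contains every match of TTCCTNGAA, was present in the same window alone among the 14, against 6.57% of all. These matches describe letters and do not show a binding site.

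BCL6 peaks were found at 7 of the 10 genes, and 5 of them (RHOH, BTG2, IRF8, ST6GAL1 and BCL7A) had peaks of each replicate that shared at least 1 bp, called matched here. Matched peaks lay in the windows of 6.85% of all protein-coding genes, so 5 of 10 is above that background. The members were chosen with earlier results of these data known, so this excess is not independent of the peaks. A replicate 1 peak was present at 6 members, against 21.2% of all genes, and a replicate 2 peak at 7, against 16.2%. A peak of either list was present at 7 members, against 27.4% of all genes. PIM1, BTG1 and CD83 had none in either list. RHOH alone had matched summits in the first 2 kb after its start. That is 1 of the 9 members with a strand (11.1%), against 1.78% of the 15812 genes whose strand is given. The −log10 q of a peak is the caller's significance value against its background. With only peaks of at least 5, the 5 matched members became 2, and the share of all protein-coding genes fell from 6.85% to 2.99%. The RHOH call in the first 2 kb was then lost (0 members). With at least 10 the counts were 1, against 1.54% of all genes, and 0. The share of all genes in the first 2 kb is not given here for these cutoffs.

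Long genes take in more peaks, so the members were also set against genes of their own length. Matched peaks were present at 1 of 4 members shorter than 20 kb (BTG2), where 5.31% of such genes had them. They were present at 3 of 4 members of 20 to 100 kb (RHOH, BCL7A and IRF8), against 7.02%, and at 1 of 2 of 100 kb and over (ST6GAL1 but not BACH2), against 10.6%. Over the 1.11 Mb of the 10 windows, replicate 1 had 2.51 peaks per 100 kb and replicate 2 had 2.07. Over the windows of all protein-coding genes the values were 0.275 and 0.189. Leaving out each member in turn gave 1.87 to 3.98 in replicate 1, the lowest without RHOH and the highest without BACH2, and 1.77 to 2.84 in replicate 2.

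In fold enrichment the members' peaks were close to the median of each list, and in −log10 q they were somewhat higher. The authors' fold enrichment sets the summit signal against the caller's background, whose control was not given. It ranged from 2.44 to 7.07 in replicate 1 with a median of 3.41, and the median of the whole list was 3.55. In replicate 2 it ranged from 2.83 to 6.02 with a median of 3.79, against 3.74 for the list. The median −log10 q was 4.71 at the members against 3.94 overall in replicate 1, and 4.51 against 3.77 in replicate 2. A −log10 q of at least 10 was reached by 17.9% of the members' peaks against 9.59% of the list in replicate 1, and by 8.70% against 9.42% in replicate 2. The number of fragments over each summit (the pileup) was recovered from the authors' values. Its median was 27.5 at the members against 23 overall in replicate 1, and 23 against 21 in replicate 2. The background recovered with it was higher at the members too, with medians of 6.97 against 5.90 and 5.19 against 4.66. Its part in the higher peak density was not tested.

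**Figure D1:**
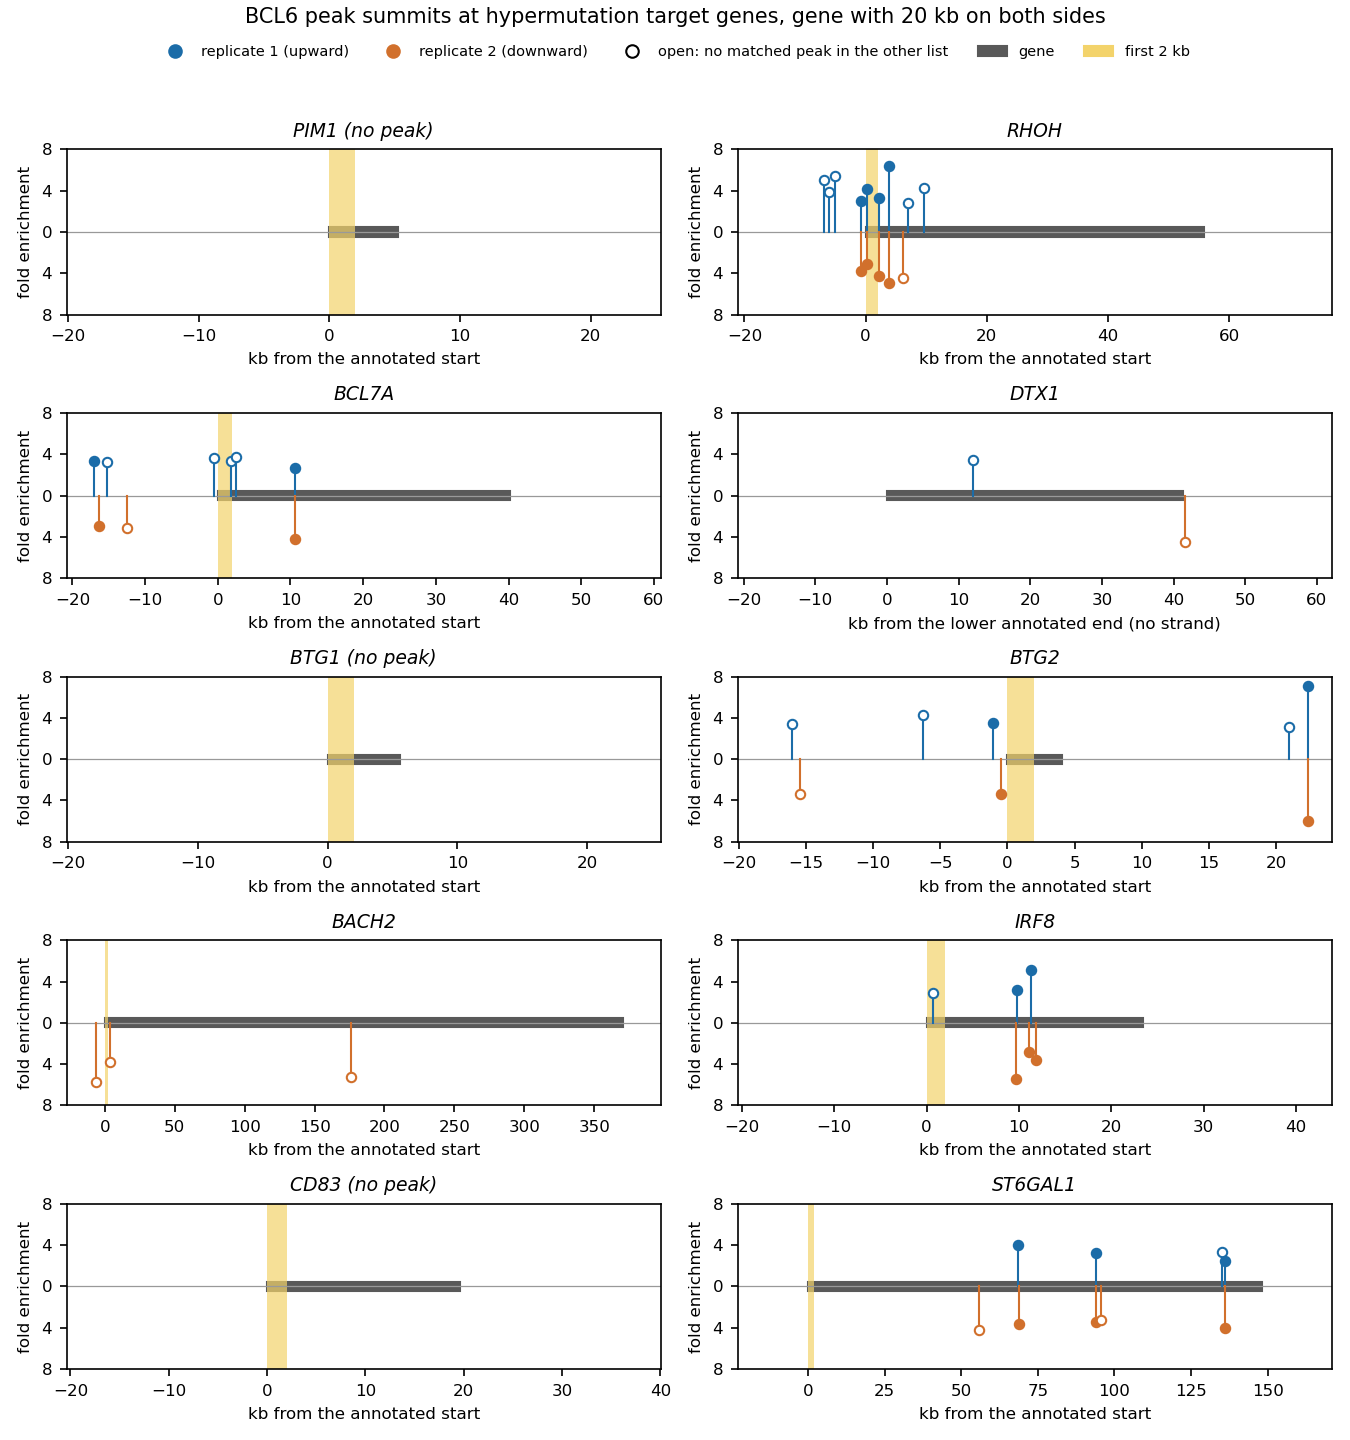
Peak summits by distance in kb from the annotated start (DTX1: from its lower end, as no strand is given), 1 panel per gene with 20 kb on both sides. Line height is the authors' fold enrichment, upward for replicate 1 and downward for replicate 2, and filled points are matched between the lists. RHOH is the only gene with filled points of each replicate in the shaded first 2 kb, and PIM1, BTG1 and CD83 hold no point.

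RHOH encodes a GTPase-deficient signalling protein of blood cells that acts in antigen receptor signalling. It spans 55.9 kb (chr4:40191080-40246967) and had the most peaks of the members, 9 in replicate 1 and 5 in replicate 2, with 4 matched regions within 5.27 kb. All 14 of its peaks lay between 6.80 kb before and 9.64 kb after the first start, so the rest of the gene held none. At least 4 matched regions were present at 0.300% of all protein-coding genes, 60 in number.

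The matched region in the first 2 kb of RHOH (chr4:40191037-40191756) had its summit 247 bp after the start in each replicate, at the same base. Replicate 1 gave a fold enrichment of 4.11 and a pileup of 30 (exact Poisson 95% interval 20.2 to 42.8), and replicate 2 gave 3.10 and 32 (21.9 to 45.2). The −log10 q was 7.19 and 4.51. By fold enrichment the peak stood at percentile 71.9 of its list in replicate 1 and 20.7 in replicate 2.

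The strongest RHOH region lay further in (chr4:40194619-40195321), 3860 and 3824 bp after the first start. Its fold enrichment was 6.41 and 4.90, with pileups of 53 (39.7 to 69.3) and 33 (22.7 to 46.3) and −log10 q of 22.3 and 9.99. Among the 1311 regions of both replicates it ranked 148 by the smaller of its 2 fold enrichments. By fold enrichment it stood at percentile 97.0 of the replicate 1 list and 84.0 of the replicate 2 list.

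The other RHOH regions flank the start. The region at chr4:40192314-40193401 had summits 2246 and 2171 bp after the first start, with fold enrichments of 3.30 and 4.27. The one at chr4:40190051-40190722 lay 770 and 780 bp before it, with 2.98 and 3.79. Both were higher in replicate 2, while the 2 described above were higher in replicate 1.

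RefSeq lists further RHOH starts at 1.88, 2.58 and 5.95 kb from the first. Against these, the region at 2.25 kb lay 367 and 292 bp after the second start, and the strongest region lay 1277 and 1241 bp after the third. With any start counted, 3 of the 4 matched regions fell in the first 2 kb of a transcript. A replicate 2 peak with no match (fold enrichment 4.502) lay 143 bp after the fourth start.

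Peaks of 1 list only also lay on either side of the matched RHOH regions. Replicate 1 alone had 3 summits before the start, at 6801, 5968 and 4976 bp, with fold enrichments of 4.99, 3.91 and 5.46. The last of these had a −log10 q of 11.7 and a pileup of 33 (22.7 to 46.3), yet replicate 2 had no peak over it. Replicate 1 alone also had peaks 7073 and 9644 bp after the start (2.77 and 4.21). The 3 summits before the start lie past the near end of the neighbouring gene N4BP2, on the side of that gene's body. N4BP2 also holds the replicate 1 summit 770 bp before the start. Nearness alone does not assign these summits to RHOH.

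**Figure D2:**
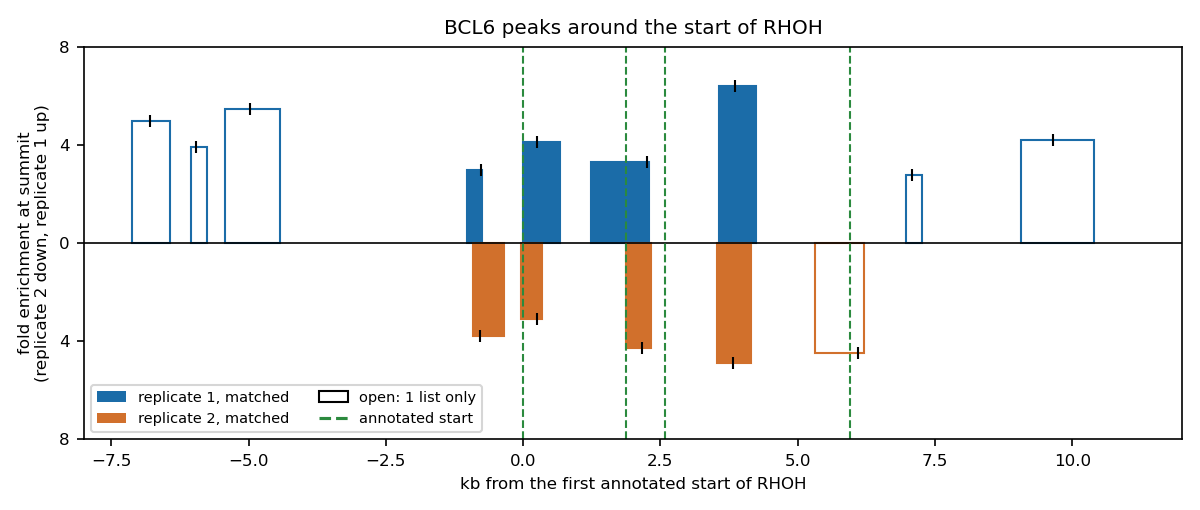
Peaks around the RHOH start, in kb from its first annotated start, as bars from peak start to peak end whose height is the fold enrichment at the summit (small vertical tick). The 4 filled pairs are the matched regions, 1 of them at 247 bp in each replicate, and dashed lines are the 4 annotated starts.

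BTG2 and BTG1 encode related antiproliferative proteins, and they differed: BTG2 had 8 peaks and BTG1 had none. BTG2 is short (4.08 kb, chr1:203305519-203309602), and all of its peaks lay outside the gene, 5 of replicate 1 and 3 of replicate 2. The strongest region of any member was among them, at chr1:203327212-203328374. Its summits lay 18.3 kb beyond the 3′ end in each replicate, 13 bp apart. The fold enrichment was 7.07 and 6.02, with pileups of 80 (63.4 to 99.6) and 67 (51.9 to 85.1) and −log10 q of 36.9 and 26.4. By the smaller fold enrichment it ranked 62 of 1311. It was the only member region whose peaks passed a −log10 q of 10 in each list.

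Nearer to BTG2, a matched region (chr1:203304341-203305224) lay just before the start. Its summits were 1051 bp before the start in replicate 1 and 478 bp before it in replicate 2, with fold enrichments of 3.47 and 3.34 and pileups of 25 (16.2 to 36.9) and 27 (17.8 to 39.3). The summits were 573 bp apart. No summit fell in the first 2 kb of BTG2. The remaining 4 BTG2 peaks were each found in 1 list, among them peaks near 16 kb before the start that did not touch (16057 bp in replicate 1 and 15426 bp in replicate 2).

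BTG1 (5.57 kb, chr12:92140278-92145846) had no peak in its window. The nearest summit of replicate 1 lay 26.3 kb from the gene, just outside the 20 kb limit, with a fold enrichment of 3.52 and a −log10 q of 3.53. In replicate 2 the nearest was 809 kb away. The difference between these paralogs was not tested, and a peak below the calling threshold would not appear in the lists.

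IRF8, BCL7A and BACH2 encode regulators of transcription or chromatin. IRF8, an interferon regulatory factor that shapes germinal centre B cells, spans 23.4 kb (chr16:85899162-85922609) and had 2 matched regions, each inside the gene. At chr16:85908712-85909258 the summits lay 9737 and 9732 bp after the outer start, with fold enrichments of 3.19 and 5.47 and −log10 q of 3.36 and 10.4. At chr16:85909737-85911148 replicate 1 had a broad peak of 1412 bp with a fold enrichment of 5.13 and a −log10 q of 12.8. Replicate 2 had 2 narrower peaks under it, with 2.83 and 3.55. By fold enrichment, the replicates thus placed their stronger IRF8 signal in different, neighbouring regions. Pileups of the first and second region were 23 (14.6 to 34.5) and 39 (27.7 to 53.3) in replicate 1. In replicate 2 they were 30 (20.2 to 42.8) and 21 (13.0 to 32.1) at the stronger peak. The intervals overlap within each replicate.

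In the first 2 kb of IRF8, counted from the outer end of the gene, replicate 1 alone had a summit, 695 bp after it, with a fold enrichment of 2.89 and a −log10 q of 2.67. The starts of IRF8 in the promoter table lie 3.67 and 3.85 kb further in, and no summit fell in the 2 kb after either. The IRF8 regions near 10 kb are thus inside the gene by either start.

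BCL7A encodes a subunit of SWI/SNF chromatin remodelling complexes and spans 40.2 kb (chr12:122021884-122062044). It had 6 peaks in replicate 1 and 3 in replicate 2. A matched region inside the gene (chr12:122032244-122032968) had summits 10678 and 10666 bp after the start, with fold enrichments of 2.68 and 4.24 and pileups of 28 (18.6 to 40.5) and 23 (14.6 to 34.5). The other (chr12:122004687-122005734) lay 17.0 and 16.4 kb before the start, with 3.36 and 2.97. Its replicate 1 pileup was 65 (50.2 to 82.8) over a background of 18.7, the highest background of any member peak, and its summits were 619 bp apart.

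At the start of BCL7A itself, replicate 1 had 3 peaks in a row that replicate 2 lacked. They lay 500 bp before and 1766 and 2520 bp after the start, with fold enrichments of 3.63, 3.39 and 3.69 and −log10 q of 4.56, 4.98 and 8.07. The summit at 1766 bp lies in the first 2 kb, where replicate 1 had a summit at 3 members (RHOH, BCL7A and IRF8), against 6.53% of genes with a strand. Replicate 2 had a summit there at RHOH alone, against 4.76%.

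BACH2, a repressor that holds B cells back from plasma cell differentiation, is the longest member (370 kb, chr6:89926528-90296843). It had 3 peaks of replicate 2 and none of replicate 1. The summits lay 6354 bp before, 3382 bp after and 176 kb after the start, with fold enrichments of 5.74, 3.76 and 5.21. Their pileups were low, at 15 (8.40 to 24.7), 13 (6.92 to 22.2) and 12 (6.20 to 21.0), over backgrounds of 1.79, 2.72 and 1.497. With that of the DTX1 peak, 2.53, these were the lowest backgrounds of the replicate 2 peaks at the members.

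ST6GAL1 encodes a sialyltransferase that puts sialic acid on surface glycans of B cells, including those bound by CD22. It spans 148 kb (chr3:186930526-187078553), and its 4 peaks of replicate 1 and 5 of replicate 2 all lay inside the gene, 55.9 kb or more from the annotated start. The 3 matched regions followed each other through the gene. At chr3:186998926-186999398 (68.6 and 68.8 kb after the start) the fold enrichments were 4.06 and 3.67. At chr3:187024541-187024912 (94.1 kb in each) they were 3.26 and 3.395, and at chr3:187066260-187066822 (136 kb) they were 2.44 and 4.04.

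All of these ST6GAL1 regions were modest. Pileups were 23, 18 and 23 in replicate 1 and 19, 15 and 24 in replicate 2, and none reached a −log10 q above 5.31 in either list. At least 3 matched regions were present at 0.501% of all protein-coding genes. The promoter table gives ST6GAL1 a single start, so any start further inside the gene was not used here.

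DTX1 encodes an E3 ubiquitin ligase of Notch signalling (41.3 kb, chr12:113056730-113098025). It had 1 peak in each list, and these were far apart. The replicate 1 summit lay inside the gene, 12.03 kb from its lower and 29.3 kb from its upper end, with a fold enrichment of 3.43. The replicate 2 summit lay 284 bp beyond the upper end, with 4.54 and a pileup of 15 (8.40 to 24.7). No strand is given for DTX1 in the table used, but neither summit lies in the 2 kb inside either end.

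The last 2 members had no peak. PIM1 encodes a serine/threonine kinase that promotes survival (5.28 kb, chr6:37170152-37175428). Its nearest summits lay 120 kb away in each list, with fold enrichments of 4.95 and 2.996. CD83, an activation marker and surface protein of the immunoglobulin superfamily (19.7 kb, chr6:14117256-14136918), had its nearest summits 450 kb away in replicate 1 and 407 kb away in replicate 2. Since the depth of the libraries is unknown, no peak means that none was called, not that BCL6 was absent.

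By position, 9 of the 13 matched regions lay inside a member and 4 outside. For the 9 genes with a strand, 4 of 49 peaks fell in the first 2 kb after the start (3 of replicate 1 and 1 of replicate 2) and 5 in the 2 kb before it. The rest of the gene held 26 of 49, 11 lay more than 2 kb before the start and 3 beyond the gene. These classes differ widely in length, as BACH2 alone spans 370 kb, and the counts are not scaled to it. In the 2 kb before the start, matched summits were present at RHOH and BTG2, against 1.39% of genes with a strand. BTG2, IRF8 and BCL7A each had 2 matched regions, and at least 2 were present at 1.36% of all protein-coding genes.

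The replicates placed most matched summits close together. The summits of the 13 matched regions were 36 bp apart in the median, and 10 of the 13 were within 200 bp, the exceptions being 1 region each at BCL7A, BTG2 and IRF8. Fold enrichment was higher in replicate 1 in 7 regions and in replicate 2 in 6. Of the members' peaks, 46.4% were matched in replicate 1, against 25.8% of the whole list, and 60.9% in replicate 2, against 38.5%. The smaller of the 2 fold enrichments had a median of 3.26 over the 13 regions and 3.30 over all 1311.

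**Figure D3:**
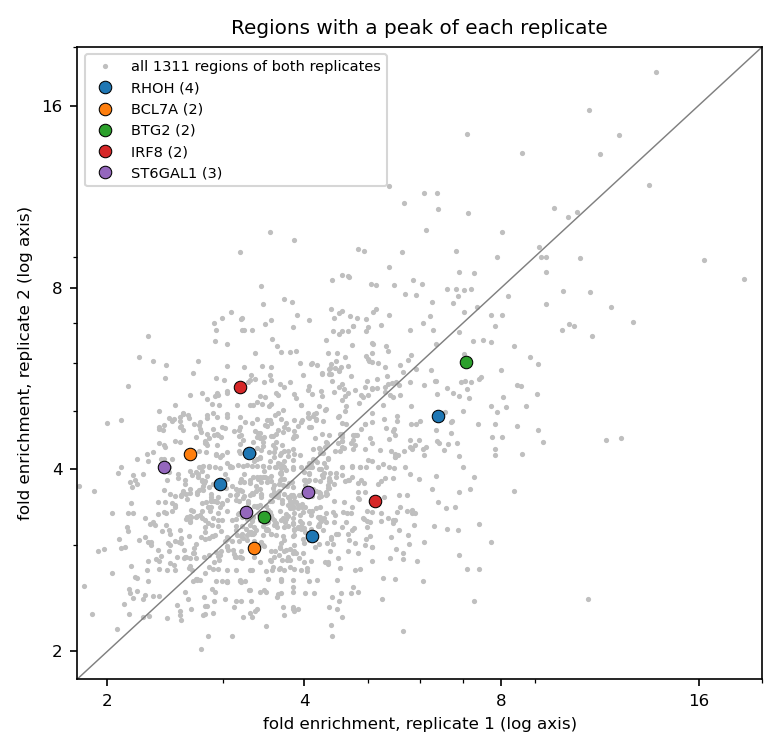
Fold enrichment in replicate 1 (x, log axis) and replicate 2 (y, log axis) for the 1311 regions with a peak of each list (grey) and the 13 at the members (coloured by gene), with the line of equal values. The BTG2 region at 7.07 and 6.02 and the RHOH region at 6.41 and 4.90 lie toward the upper right, and the other 11 lie within the bulk of the grey points.

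Other genes reported as hypermutation targets were examined in the same way, in a list of 30. Of these, 12 had matched peaks (40.0%, against 6.85% of all protein-coding genes), and 27 had a peak of either list, against 27.4% of all genes. This list, too, was chosen with earlier results of these data known, so its shares are not independent of the peaks. The 6 with the largest smaller fold enrichment were the linker histone genes H1-3 (9.37 and 9.003), H1-5 (7.01 and 7.28) and H1-4 (4.26 and 5.76), the chemokine receptor gene CXCR4 (9.35 and 8.47), BCL6 (6.38 and 11.5) and LPP (5.59 and 5.95), a large gene beside BCL6. By the smaller value, H1-3, CXCR4, H1-5 and BCL6 lie above all 13 member regions. LPP lies below the strongest BTG2 region, and H1-4 below that and the strongest RHOH region. Matched summits in the first 2 kb were present at 4 of the 25 with a strand, against 1.78% of all genes with a strand, namely H1-2, H1-5, LPP and RFTN1.

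Of 18 genes for enzymes and cofactors of hypermutation, 2 had matched peaks (11.1%, against 6.85% of all protein-coding genes), among them the topoisomerase gene TOP1, with a region 16.9 kb outside the gene (3.81 and 3.51). Against the same 6.85%, 0 of 12 hepatocyte genes had matched peaks. A replicate 1 peak was present at 2 of the 12, against 21.2% of all genes. Of 12 T cell genes, 2 had matched peaks (16.7%, against 6.85%), CD3E (3.26 and 3.19) and LCK (3.04 and 3.85).

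**Figure D4:**
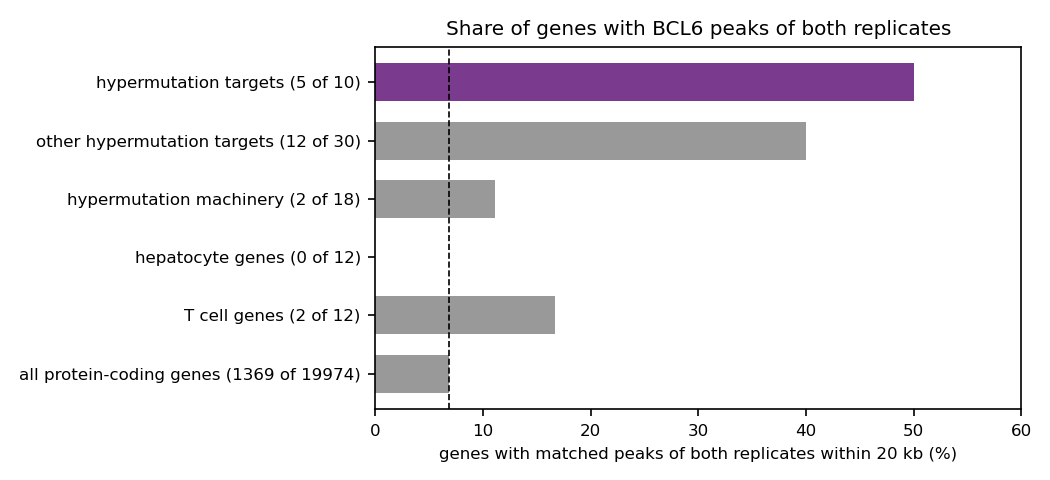
Share of genes, in percent, with matched peaks of both replicates in the gene or within 20 kb, for each list and for all protein-coding genes (dashed line, 6.85%). No error bars are drawn, because the genes of a list are not a random sample. The lists were chosen with earlier results of these data known. The 10 members stand at 5 of 10 and the other hypermutation targets at 12 of 30.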

How the data were processed

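CUT&RUN peak lists of 2 BCL6 replicates were used, with groups and replicate numbers from the sample titles. The submitters' processing notes name MACS2, Bowtie2, cutadapt, FastQC, Picard, SAMtools, deepTools and bedtools and the build hg38. Versions, settings and the control of the peak calling were not given in the sources used here. Each deposited peak carries the authors' fold enrichment (a ratio), −log10 p and q, and a summit. The deposited score is 10 times the −log10 q and was not used. Peaks were called per library.

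Read totals are unknown. The pileup at each summit was the whole number that gives the deposited −log10 p and fold enrichment under a Poisson background (tolerance 0.001, 5233 of 5237 and 3532 of 3536 peaks, all 51 at the members). Its exact Poisson 95% intervals include counting error alone, as PCR duplicates are no separate molecules.

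Genes came from RefSeq (GRCh38.p14, the assembly of hg38), chromosomes 1 to 22 and X. Strands came from the RefSeq promoter table, and a start is the outer end of the gene on its strand. Peaks sharing at least 1 bp were matched. Python 3.11.15, pandas 2.3.3 and scipy 1.17.1 were used. Only the calls in the first 2 kb and the recovery of pileups were tested on simulated data. With 1 group there is no test between groups.

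The members and lists were chosen with earlier results of these data known. All members are named, up to 6 genes of each other list by the smaller fold enrichment, genes sharing a member's matched summit, and the 2 genes above and below RHOH in its order. H1-2 and RFTN1 were named after their values were seen, and a gene this rule would name is not reported here. Of 82 list entries, 1 was found under a newer symbol.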

Additional observations from a re-analysis of the deposited data

How the results depend on the processing

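The count of 5 members with matched peaks was also 5 with windows of 10 kb and 50 kb, against 5.78% and 10.2% of all genes. It was 4 with the gene alone. With peak overlap in place of summits it was 5, against 6.92%. It was 4 with reciprocal overlap of 50%, against 4.66%, and 5 with summits within 200 bp, against 5.16%. With −log10 q of at least 5 it was 2 (RHOH and BTG2), against 2.99% of all genes, and with at least 10 it was 1 (BTG2), against 1.54%. Without 1 replicate the count ranged from 6 to 7 and the share of all genes from 16.2% to 21.2%. For the gene alone, 3.16% of all genes had matched peaks. RHOH was the 1 member with matched summits in its first 2 kb, also with any start counted, an alternative chosen after seeing the data. That count was 0 with −log10 q of at least 5 or 10, and 2 from 2 kb before to 2 kb after the start (RHOH and BTG2). The share of all genes is not given here for these cutoffs, for this wider window or for any start. In replicate 1 alone the count was 3 (RHOH, BCL7A and IRF8), against 6.53% of genes with a strand. In replicate 2 alone it was 1 (RHOH), against 4.76%. Peaks at the members numbered 16 and 15 inside the genes alone, 12 and 10 with −log10 q of at least 5, and 5 and 2 with at least 10, as these settings keep fewer peaks. Window width does not enter the first 2 kb, and matching or leaving out a replicate does not enter the peaks of a list, so those were not run. No paired analysis was possible because the IgG samples that share the replicate numbers have no peak list used here, and counts within the BCL6 group come from no test.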

Other observations

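Several matched regions of the members also lie near other genes, so nearness alone does not assign them. The replicate 1 summit of the RHOH region before the start lies inside N4BP2, whose end is 857 bp from the summit in the first 2 kb of RHOH. The BCL7A region before the gene lies 991 bp from CFAP251, and the strong region beyond BTG2 lies 12.8 kb from FMOD, nearer than to BTG2. In all, 6 of the 13 matched regions lie within 20 kb of another protein-coding gene. The replicate 1 summit of the BTG2 region before the start lies inside BTG2-DT, a long noncoding RNA gene. The IRF8 and ST6GAL1 regions have no other protein-coding gene within 50 kb.

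Among the 282 genes with matched summits in their first 2 kb, RHOH ranked 147 by the smaller fold enrichment (3.10). ANKRD34A (3.11) and CAB39 (3.10) stood just above it and TIA1 (3.10) and DAPP1 (3.09) just below.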
